A study of Mus musculus with 58 samples.

Results

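The 10 genes described here encode proteins that hepatocytes secrete into blood plasma: Alb, Ttr, Trf, Ahsg, Apoa1, Apoa2, Apob, Fga, Fgb and Fgg. They were chosen by name, and every array probe whose accession belongs to one of them in the RefSeq gene table was taken. This gave 14 probes for 10 of the 20651 genes named on the array. Alb, Ttr, Ahsg, Apoa1, Fgb and Fgg had 1 probe each, and Apoa2, Apob, Trf and Fga had 2. For these 4 genes the probe that was brighter over both channels is printed, and the other is described where it differs.

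The samples came from adult male Muta™Mouse, a transgenic strain that carries a bacterial lacZ reporter for mutation scoring, aged about 13 weeks and housed singly. Groups received indeno(1,2,3-cd)pyrene (IP), a polycyclic aromatic hydrocarbon, in olive oil by daily oral gavage for 28 days at 12.5, 25 or 50 mg/kg-bw/day, and control mice were gavaged with olive oil alone. Lung, liver and forestomach were collected 72 hours after the last dose, and 1 array was hybridised per mouse and tissue. There were 20 lung arrays (5 in each of the 4 groups), 19 liver arrays and 19 forestomach arrays (in both, 4 from the vehicle group and 5 from every dosed group). The mouse number in the labels marks the same animal in all tissues.

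Each array held the sample RNA in the Cy5 channel and a universal mouse reference RNA, pooled from 11 mouse cell lines, in the Cy3 channel. Values below are log2 ratios of the Cy5 over the Cy3 signal after loess within the array, so that 0 means the same signal as the reference and 1 unit is a doubling. A probe was counted as read in a sample where the scanner software marked its Cy5 signal as well above background. No spot of the Cy5 channel was saturated on any array. All lung and forestomach arrays lay on 5 slides, and all liver arrays lay on 3 other slides that were read with a later version of the scanner software, so that for liver the tissue, the slides and the software cannot be told apart.

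Hepatocytes make most of the protein of plasma, and these transcripts are among the most abundant in the liver. Albumin (Alb) keeps the colloid osmotic pressure and carries fatty acids, transthyretin (Ttr) carries thyroxine and the retinol-binding protein, transferrin (Trf) carries iron, and fetuin-A (Ahsg) is a glycoprotein that keeps calcium phosphate in solution. Apolipoproteins A-I and A-II (Apoa1, Apoa2) are the main proteins of high-density lipoprotein, and apolipoprotein B (Apob) is the structural protein of very-low-density lipoprotein and, in the small intestine, of chylomicrons. Fga, Fgb and Fgg encode the α, β and γ chains of fibrinogen, the precursor of the fibrin clot. Transcription of these genes in hepatocytes depends on a shared set of factors, among them HNF4α, C/EBP and FOXA proteins.

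The fibrinogen genes are neighbours on chromosome 3, where the mouse assembly GRCm38.p6 places Fgg at chr3:83007724-83015056, Fga at chr3:83026153-83033627 and Fgb at chr3:83042246-83049863. Alb lies at chr5:90460870-90476602, Apoa1 at chr9:46228630-46230469 and Ahsg at chr16:22892015-22899451. RefSeq promoters of this assembly were found for 8 of the 10 genes, with 9 promoters in all because Apoa2 has 2. The 250 bases before the transcription start are shown for 5 genes that represent the carriers, the apolipoproteins and the fibrinogen chains, 5′ to 3′ on the gene's strand, because the liver levels below are those of genes read from these promoters. Capitals mark matches on either strand to TTGCNNAA (a C/EBP type site), TGTTTNC (a FOXA type site), TATAAA or CCAAT.
Alb, chr5:90460620-90460869, plus strand: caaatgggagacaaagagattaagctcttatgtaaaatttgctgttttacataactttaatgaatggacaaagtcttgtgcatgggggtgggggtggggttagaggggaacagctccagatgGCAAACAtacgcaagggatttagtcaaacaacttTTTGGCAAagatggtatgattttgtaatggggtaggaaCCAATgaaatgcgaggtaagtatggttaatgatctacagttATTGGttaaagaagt
Fga, chr3:83025903-83026152, plus strand: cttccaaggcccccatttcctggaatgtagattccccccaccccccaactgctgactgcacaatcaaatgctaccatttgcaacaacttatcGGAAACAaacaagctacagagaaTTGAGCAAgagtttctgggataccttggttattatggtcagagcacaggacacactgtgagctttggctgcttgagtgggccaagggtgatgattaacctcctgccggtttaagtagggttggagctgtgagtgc
Fgb, chr3:83049864-83050113, minus strand: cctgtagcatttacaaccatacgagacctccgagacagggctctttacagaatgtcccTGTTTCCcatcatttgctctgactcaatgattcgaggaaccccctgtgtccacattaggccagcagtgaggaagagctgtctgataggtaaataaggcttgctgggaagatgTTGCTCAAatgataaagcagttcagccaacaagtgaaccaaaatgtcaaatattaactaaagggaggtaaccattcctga
Apoa1, chr9:46228380-46228629, plus strand: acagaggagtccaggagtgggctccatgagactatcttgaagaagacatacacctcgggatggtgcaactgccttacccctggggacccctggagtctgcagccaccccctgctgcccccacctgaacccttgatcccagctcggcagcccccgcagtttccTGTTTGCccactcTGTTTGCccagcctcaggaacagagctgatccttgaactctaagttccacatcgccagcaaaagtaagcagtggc
Ahsg, chr16:22891765-22892014, plus strand: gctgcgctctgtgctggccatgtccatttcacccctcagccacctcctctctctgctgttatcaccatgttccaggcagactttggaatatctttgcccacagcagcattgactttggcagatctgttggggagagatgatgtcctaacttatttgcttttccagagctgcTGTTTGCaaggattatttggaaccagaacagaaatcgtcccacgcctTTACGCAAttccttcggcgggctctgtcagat

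TTGCNNAA was found in 6 of the 9 promoters and in 9.56% of 32851 mouse promoters of the same length. TGTTTNC was found in 7 of the 9 and in 17.8% of all promoters, CCAAT in 3 of the 9 and in 33.8%, and TATAAA in 2 of the 9 and in 12.4%. The HNF4 type letters CAAAGTCCA matched none of the 9 and 0.384% of all promoters. These are matches of letters only, and binding was not measured.

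Every member was read on all 19 liver arrays, and each had a higher log2 ratio in every liver sample than in any lung or forestomach sample, which was true of 4.41% of all probes. The carrier proteins came first. Alb ranged over the liver arrays from 6.28 through a median of 7.55 to 8.3, Ttr from 7.06 through 7.9 to 8.29, and Trf from 7.15 through 8.12 to 8.6. Ahsg ranged from 6.53 through 7.55 to 8.24. In each of these 4 genes the lowest 5 liver values belonged to the arrays of 1 slide, which is described below.

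Among the apolipoproteins, Apoa1 ranged in liver from 7.62 through 8.41 to 8.88 and Apob from 9.4 through 10.26 to 11.02. The printed Apoa2 probe ranged from 4.45 through 5.37 to 6.07. That probe was also bright with the reference RNA in every tissue, with a Cy3 median of 985 in lung, and its ratio is correspondingly small. The other Apoa2 probe ranged in liver from 6.81 through 7.98 to 8.42. The fibrinogen chains ranged from 8.16 through 9.01 to 9.33 for Fga, from 8.48 through 9.27 to 9.57 for Fgb and from 9.66 through 10.53 to 10.89 for Fgg. Raw Cy5 medians in liver ran from 38600 scanner units for Fga to 423000 for the printed Apoa2 probe. Values of different probes are not set against each other here, since each probe has its own response.

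In lung, 9 of the 10 members had medians between -0.18 and 0.72, and Trf stood apart from them. Trf ranged over the 20 lung arrays from 5.53 through 5.86 to 6.22 and was read on all 20, with a raw Cy5 median of 45800. Its other probe ranged from 4.81 through 5.77 to 6.06. The lung arrays thus carried a strong transferrin signal in every mouse. With the printed probe the lowest lung value lay above the highest forestomach value, 4.97, and with the other probe the lowest lung value, 4.81, lay below the highest forestomach value, 5.19. Apoa1 was read on 4 of 20 lung arrays, from -0.12 through 0.02 to 0.13, and Alb on 9 of 20, from -0.15 through 0.29 to 0.5. Ttr, Fga and Fgb were read on 8, 8 and 7 of 20 lung arrays, with medians of -0.18, 0.03 and 0.16.

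Fgg, Ahsg and the printed probe of Apob were read on most lung arrays at low levels. Fgg ranged in lung from 0.11 through 0.71 to 2.06 (18 of 20 arrays read), and the values above 1.5 came from mice 6, 11, 15, 16 and 20. The lung arrays of mice 6, 11 and 16 lay on slide 1 and those of mice 15 and 20 on slide 5. Both slides also held a vehicle lung, and no vehicle lung exceeded 1.16. Apob ranged from -0.07 through 0.4 to 0.98 (18 of 20, against 4 of 20 for its other probe) and Ahsg from 0.28 through 0.72 to 1.3 (20 of 20). Lung identity was plain in the 7 measured lung epithelium markers, among them the surfactant protein genes, whose mean ranged from 5.8 to 6.6 in lung, from 0.15 to 0.36 in liver and from 0.7 to 2.88 in forestomach.

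In forestomach the members varied more between mice than in either other tissue. Apoa1 ranged over the 19 arrays from 0.06 through 1.66 to 5.47 (14 read) and Ttr from 0.08 through 1.63 to 5.57 (14 read). Alb ranged from 0.3 through 0.8 to 4.28 (18 read) and Ahsg from 0.41 through 0.94 to 4.51 (19 read). Apob ranged from -0.23 through 0.88 to 2.27 (13 read), Fgb from -0.06 through 0.59 to 3.17 (16 read) and Fgg from 0.01 through 0.6 to 3.2 (9 read). Fga was the least often read, on 7 arrays, from -0.18 through 0.1 to 1.51. The printed Apoa2 probe ranged from -0.39 through 0.14 to 2 and the other Apoa2 probe from -0.02 through 1.02 to 4.78. Trf was read on all 19 arrays, from 3.16 through 3.92 to 4.97.

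**Figure D1:**
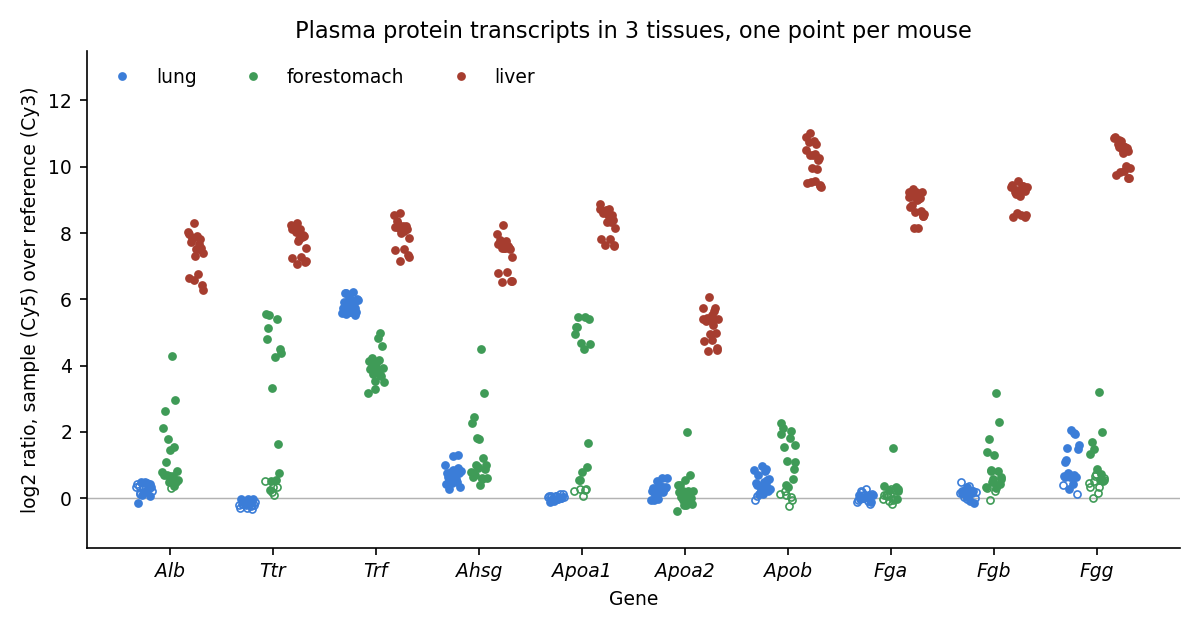
Log2 ratio of the sample (Cy5) over the reference (Cy3) for each of the 10 genes (horizontal axis) in lung (blue), forestomach (green) and liver (red), with 1 point per mouse and open points where the Cy5 signal was not well above background. All liver points lie above all lung and forestomach points of the same gene, Trf is high in lung (5.53 to 6.22), and forestomach Apoa1 and Ttr points spread from near 0 to 5.47 and 5.57.

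Differences between tissues were tested in the vehicle groups. Against vehicle lung, all 10 members were higher in vehicle liver, where 26.8% of all 55681 probes were called in either direction and 11.1% were called higher. Here and below, a call means a Benjamini-Hochberg adjusted p ≤ 0.05 over all probes in limma together with a change of 1.5-fold or more. The median log2 difference was 8.3. Trf was read on all arrays of both tissues, at 5.6, 5.73, 5.93, 6.19 and 6.19 in the 5 vehicle lungs against 8.53, 8.18, 7.49 and 8.37 in the 4 vehicle livers. This is a log2 difference of 2.21 ± 0.26 (SE, limma adjusted p = 1.8e-10) or 4.63-fold, and the other Trf probe differed by 4.4 ± 0.32. Differences of 7 other members rest in part on lung values not well above background, since Alb and Apoa1 were read on 1 of the 5 vehicle lungs, Ttr, Fga and Fgb on 2, Apob on 3 and Fgg on 4. Apob differed by 10.06 ± 0.38, from 0.86, -0.07, 0.47, 0.41 and 0.06 in lung to 10.89, 10.51, 9.5 and 10.74 in liver. The other Apob probe was not well above background on any vehicle lung array and was at least 351-fold higher in liver.

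Against vehicle forestomach, all 10 members were higher in vehicle liver, with 22.7% of all probes called and 9.89% called higher. The differences ran from 3.93 ± 0.91 for Ttr to 9.59 ± 0.43 for Fgg, with a median of 6.02. Between forestomach and lung, 4 members were higher in vehicle forestomach and 1 was lower, where 19.5% of all probes were called, 8.9% higher and 10.6% lower. Ttr was higher by 4.16 ± 0.86 (adjusted p = 9.83e-05, limma) and Apoa1 by 3.86 ± 0.92 (adjusted p = 0.000628, limma), with 3 of the 4 vehicle forestomachs between 4.79 and 5.57 in both genes and mouse 1 at 0.21 for Apoa1 and 0.51 for Ttr, both not well above background, as were 3 of the 5 vehicle lungs for Ttr and 4 for Apoa1. The mean of 8 glandular stomach markers, described below, was 0.63 in the forestomach of mouse 1. In mice 2, 3 and 5, the high ones, it was 6.6, 6.66 and 6.68. The part of glandular stomach in these 2 differences was not tested. The fit used 1 spread per probe for all groups. In vehicle forestomach the SD was 2.35 for Ttr and 2.45 for Apoa1, against 0.11 and 0.07 in vehicle lung. For Alb, Apob and the other Apoa2 probe the SD was 0.96, 1 and 1.04 in vehicle forestomach, against 0.24, 0.37 and 0.24 in vehicle lung. The SEs and p-values of all these genes, also for Ttr against liver, do not allow for this unequal spread. Alb was higher by 1.34 ± 0.48 and Apob by 1.27 ± 0.38. Both lost the call when mouse 2 or mouse 5 was left out (1.22 and 0.96 for Alb, 1.06 and 1.02 for Apob), and Apob also without mouse 3 (1.08). Trf was lower in forestomach, with a log2 difference of -2.1 ± 0.26. For Apoa2 the probes differed: the printed probe differed by 0.01 ± 0.28 and the other by 1.72 ± 0.5 (adjusted p = 0.00549, limma).

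A ratio also depends on its reference channel, which held the same reference RNA on every array. At the probes of these genes the Cy3 signal was not the same in all tissues. The Cy3 median of Alb was 55.8 scanner units on lung arrays, 68 on forestomach arrays and 3260 on liver arrays, that of Ahsg was 98.5, 85 and 3810, and that of Ttr was 78, 79 and 1090. Over all probes the median of the arrays' Cy3 medians was 91.2 in lung, 86 in forestomach and 77.5 in liver. The reference signal was thus raised on liver arrays at most of these probes and not over the array as a whole. The exceptions were Apob (85.2, 67 and 106) and Fga (82, 72.5 and 140), where the tissues differed least. In liver the Cy3 signal amounted to between 0.144% of the Cy5 signal for Fgg and 5.1% for Apoa2, with 0.988% for Alb.

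The same was measured at other probes as bright in 1 tissue as these members are in liver, and whose Cy3 signal was not well above background on any array of another tissue. Of 11 such probes that were bright in liver and dark with the reference on lung arrays, 9 had a Cy3 signal well above background on every liver array. All 3 probes that were bright in lung and dark with the reference on liver arrays had such a signal on every lung array. What moves the Cy3 signal with the Cy5 signal was not tested. For Alb, a fit to the Cy5 signal alone gave a liver over lung log2 difference of 11.33, against 7.37 for the ratio, both against lung values of which 1 of 5 was well above background.

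**Figure D2:**
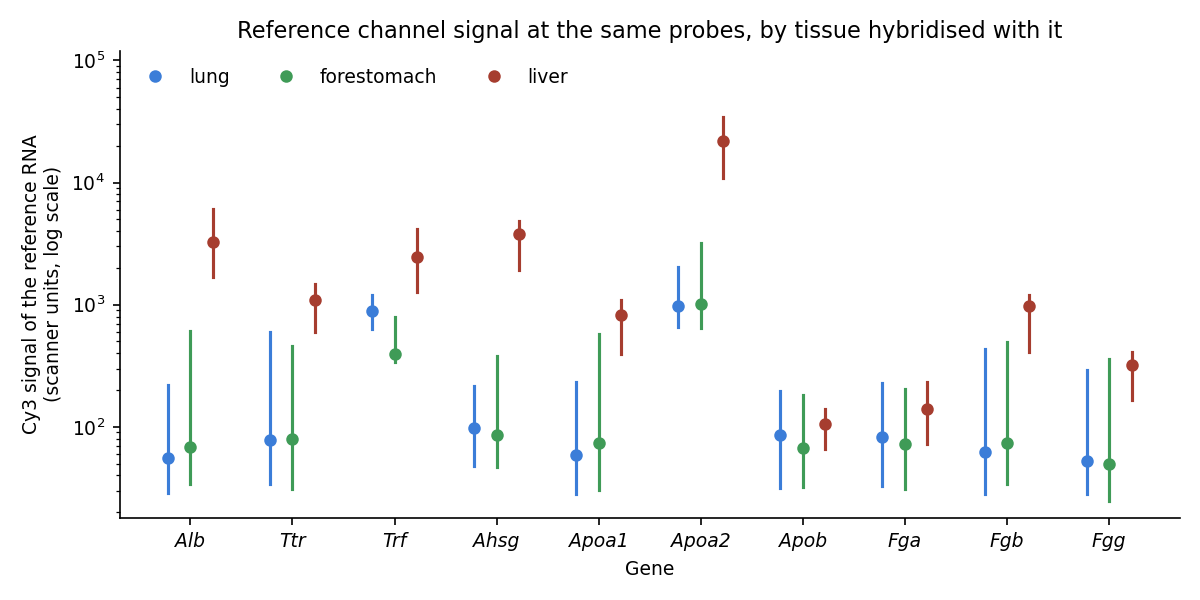
Cy3 signal of the reference RNA (vertical axis, scanner units on a log scale) at the probe of each gene on lung (blue), forestomach (green) and liver (red) arrays; points are medians and bars run from the lowest to the highest array. The reference RNA was the same throughout, yet the Alb median was 3260 on liver arrays and 55.8 on lung arrays, while the Apob medians were 106 and 85.2.

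The liver arrays fell into 2 sets for most of these genes, and the sets followed the slide. Liver slides carried 7, 5 and 7 arrays (slides 6, 7 and 8), with every dose group on each slide. On slide 7, which held mice 3, 8, 13, 18 and 19, Alb read 6.64, 6.58, 6.77, 6.43 and 6.28. On slide 6 it ranged from 7.52 to 8.03 and on slide 8 from 7.31 to 8.3. For 8 of the 10 members, all but Apob and Fga, every slide 7 array lay below every one of the 14 other arrays, which was true of 0.182% of all probes.

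With dose group in the fit, all 10 members were lower on slide 7 than on slide 6 and 9 were called, where 0.239% of all probes were called and 0.226% were called lower. The differences ran from -1.25 ± 0.14 for Alb to -0.62 ± 0.15 for Fga, and Fga was not called (adjusted p = 0.111, limma). Against slide 8, all 10 were again lower and 7 were called (0.171% of all probes, 0.12% lower), from -1.08 ± 0.13 for Alb to -0.54 ± 0.15 for Fga. Between slides 8 and 6, 0 members were called (0.162% of all probes called), with differences from -0.34 to 0.07. The members are among the brightest probes of the liver arrays. Of 468 other probes within the same range of liver Cy5 signal (38600 to 423000), 95.5% were lower on slide 7 than on slide 6 with a median of -0.43, and 14.1% were called.

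This slide difference depended on the scaling. With background correction before loess, 10 members were called lower on slide 7 than on slide 6 and 7 lower than on slide 8, where 0.26% and 0.162% of all probes were called. With the scanner software's log ratio, 3 and 2 members were called (0.135% and 0.0754% of all probes). All 10 lay lower on slide 7 in both comparisons, with medians of -0.75 and -0.66. With each array centred on its median log ratio and no loess, 0 members were called between slides 7 and 6 (median -0.08) or between slides 7 and 8 (median -0.54), and 2 were called higher on slide 8 than on slide 6 (median 0.46), where 13.7%, 0.0575% and 10.4% of all probes were called. With the Cy5 signal alone, quantile normalised, 0 members were called in any of the 3 slide comparisons, and the medians were 0.01, 0.03 and -0.01. With the Cy5 signal scaled to each array's 75th percentile, 0 were called and the medians were 0.06, 0.27 and -0.23. The medians of all probes were then -0.04, 0.14 and -0.14. The raw Cy5 median of Alb was 297000, 323000 and 335000 on slides 6, 7 and 8, and its Cy3 median was 4080, 4710 and 2420. The SD over the 19 liver arrays fell with the quantile-normalised Cy5 signal, from 0.6 to 0.12 for Alb and from 0.44 to 0.06 for Fgg, and least for Fga, from 0.36 to 0.34. Quantile normalisation gives every array the same set of values, which by itself narrows the spread of the brightest probes. The fall is therefore no measure of how much the Cy5 signal varied between livers.

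**Figure D3:**
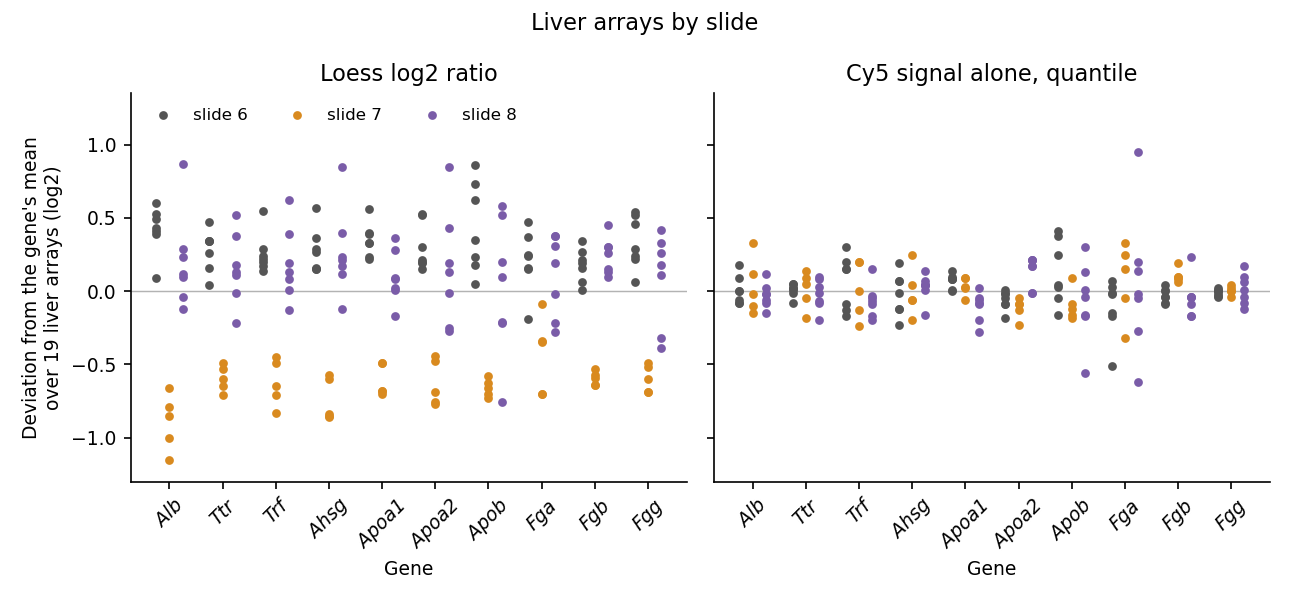
Each liver array's deviation from the gene's mean over 19 arrays (log2) for the loess ratio (left) and for the quantile-normalised Cy5 signal alone (right), with slide 6 in grey, slide 7 in orange and slide 8 in purple. On the left the slide 7 arrays lie between -1.15 and -0.09, and on the right between -0.32 and 0.33 among the arrays of the other slides.

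The members therefore moved together between livers to a degree set by the scaling. With loess ratios, Alb correlated with the 9 other members over 19 livers at Pearson's r of 0.62 to 0.97 and Spearman's rho of 0.51 to 0.95. All 9 passed Benjamini-Hochberg adjustment over the 9 relations (permutation tests with 100000 draws, adjusted p of 1.8e-05 to 0.0049, r of 0.56 to 0.97 without the 2 farthest livers), but r ran from -0.09 to 0.92 within slide 6 and from -0.49 to 0.94 within slide 8, and slide 7 has too few arrays. With the Cy5 signal alone, quantile normalised, r ran from -0.45 to 0.56 and 0 of 9 passed (adjusted p of 0.099 to 1 by permutation). With the Cy5 signal scaled to each array's 75th percentile instead, r ran from 0.22 to 0.98 and 8 of 9 passed. As a description, the 5 genes outside the members that were most like their mean over the 19 livers, each as deviations from its dose group mean, were Serpina1e (r = 0.986), Mup4 (0.983), Mup19 (0.98), Cfb (0.979) and Apoc4 (0.979), all sharing these arrays and slides. Their products are also secreted: Serpina1e is an α1-antitrypsin, Mup4 and Mup19 are major urinary proteins, Cfb is complement factor B and Apoc4 an apolipoprotein. Serpina1 and Mup genes have near-identical copies that a probe may not separate.

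Each dose was compared with vehicle to ask whether IP changed expression. In liver, 0 of the 10 members were called at 12.5, 25 or 50 mg/kg-bw/day, and 0% of all probes were called at any dose (limma). At an unadjusted p under 0.05, 0 of the printed probes passed at each dose, where 2.58%, 4.42% and 6.84% of all probes did. With the Cy5 signal alone, 4 members passed at 50 mg/kg-bw/day when quantile normalised and 3 when scaled to the 75th percentile, and 0 were called. The share of all probes that passed was computed for the loess ratios only, so these Cy5 counts are not read as a result. In bulk tissue, fewer hepatocytes and less RNA per hepatocyte cannot be told apart.

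At 50 mg/kg-bw/day the loess ratios of all 10 members lay below vehicle on average, by a median of -0.42 where the median of all probes was -0.01, but with median centring in place of loess 9 of the 10 lay above vehicle, with a median of 0.14. Apob read 10.89, 10.51, 9.5 and 10.74 in the vehicle livers and 10.21, 10.26, 9.43, 9.46 and 9.4 at 50 mg/kg-bw/day, so that all 5 dosed mice were below the vehicle mean and the groups overlapped. Its log2 fold change was -0.66 (SE 0.32, 95% interval -1.33 to 0.02, adjusted p = 0.725, limma), and the other Apob probe gave -0.53 (SE 0.18, 95% interval -0.91 to -0.14, adjusted p = 0.718, limma) and passed at an unadjusted p under 0.05. Apob was the 1 member that kept a negative value under every scaling run. Fgg read 10.87, 10.89, 9.75 and 10.68 in vehicle and 10.57, 10.46, 9.66, 9.66 and 9.96 at 50 mg/kg-bw/day, a log2 fold change of -0.49 (interval -1.04 to 0.06).

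Alb read 8.03, 7.96, 6.64 and 7.72 in vehicle and 7.82, 7.55, 6.43, 6.28 and 7.39 at 50 mg/kg-bw/day, a log2 fold change of -0.5 (interval -1.28 to 0.28). The low values in both groups, 6.64 for mouse 3 and 6.43 and 6.28 for mice 18 and 19, were those of slide 7, which held 1 of 4 vehicle livers and 2 of 5 livers at 50 mg/kg-bw/day. The other members gave -0.48 for Ahsg, -0.43 for Apoa1, -0.4 for Ttr, -0.39 for Trf, -0.29 for Apoa2, -0.28 for Fga and -0.15 for Fgb, and every interval included 0.

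With slide as a block in the fit, the members' median was -0.26 with all 10 below vehicle and 0 called, and without the 5 slide 7 arrays it was -0.34 with all 10 below and 0 called. Within slides the medians were -0.24, -0.19 and -0.36 on slides 6, 7 and 8, with 9, 9 and 8 of 10 below vehicle, each from 1 or 2 mice a group. With the Cy5 signal alone, quantile normalised, 7 of 10 lay below vehicle with a median of -0.09, and Fga gave 0.57 (adjusted p = 0.69, limma). Scaled to the 75th percentile, 9 of 10 lay below with a median of -0.51, where the median of all probes was itself -0.24. At the lower doses the loess medians were -0.07 at 12.5 mg/kg-bw/day and -0.12 at 25 mg/kg-bw/day, and with median centring all 10 members lay above vehicle at both, with medians of 0.32 and 0.17.

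In lung, 0 members were called at any dose, where 0%, 0.0126% and 0.079% of all probes were called from the lowest to the highest dose. Apoa2 was the 1 member whose printed probe had an unadjusted p under 0.05. It read -0.05, 0.23, 0.32, 0.24 and -0.06 in vehicle and 0.4, 0.17, 0.34, 0.6 and 0.33 at 25 mg/kg-bw/day, a log2 fold change of 0.23 (SE 0.11, adjusted p = 0.759, limma), and its other probe gave 0.03 at this dose, with 2 of 5 mice above the vehicle mean. The share of all probes with such a p was 3.92%, 6.54% and 8.81% from the lowest to the highest dose. Trf, the strongly read member, gave -0.06, -0.11 and -0.16 at the 3 doses (SE 0.14), and its 95% interval at 50 mg/kg-bw/day was -0.44 to 0.13. The other Trf probe, also read on all 20 lung arrays, gave 0.12, 0.12 and 0.18 (SE 0.24). Fgg gave the widest interval, 0.36 at 50 mg/kg-bw/day with -0.36 to 1.07, from 1.92, 0.65, 0.11, 1.49 and 1.59 against 0.4, 0.68, 0.64, 1.1 and 1.16 in vehicle.

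**Figure D4:**
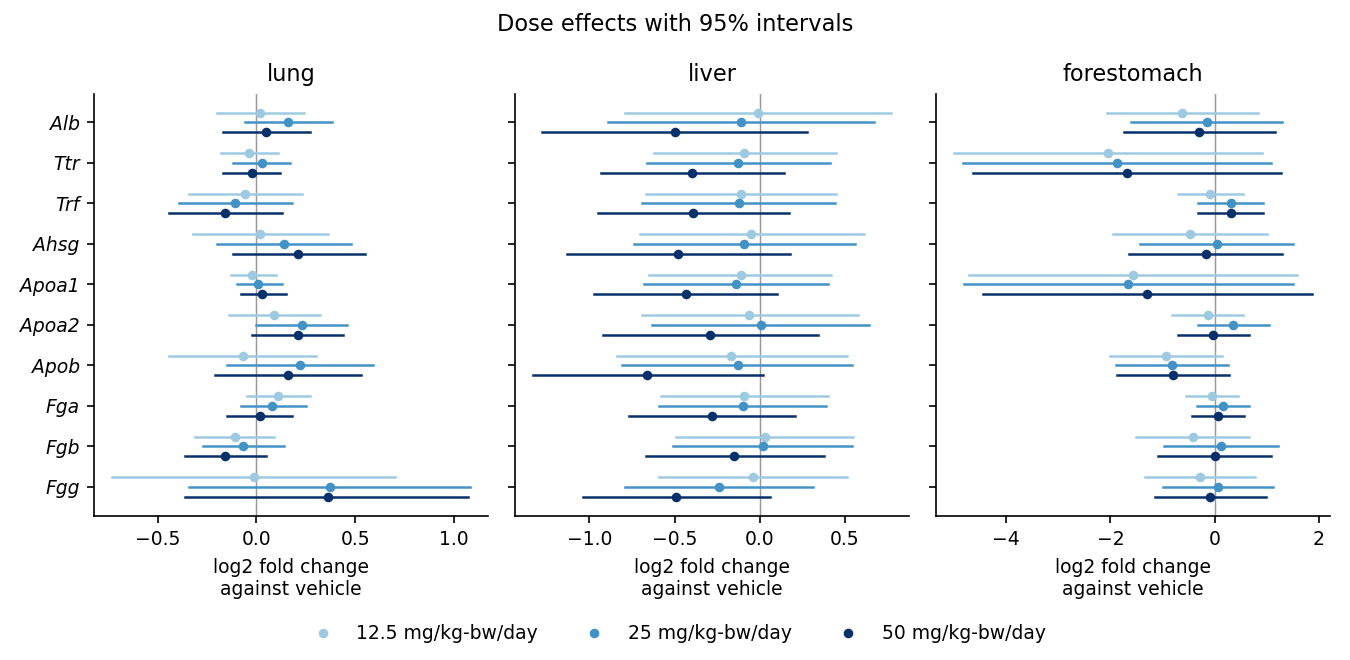
Log2 fold change against vehicle (horizontal axis, own range per panel) with its 95% interval from limma for each gene in lung (left), liver (middle) and forestomach (right), with the dose rising from 12.5 (light blue) through 25 to 50 (dark blue) mg/kg-bw/day. The intervals include 0 or touch it, and the widest are those of Ttr and Apoa1 in forestomach (Ttr at 12.5 mg/kg-bw/day, -5 to 0.92).

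In forestomach, 0 members were called at any dose, with 0% of all probes called and 4.12%, 3.59% and 3.89% of all probes, and 0 members, at an unadjusted p under 0.05. The spread between mice set the precision. Ttr gave -2.04, -1.88 and -1.68 at the 3 doses (SE 1.41), Apoa1 -1.56, -1.66 and -1.29 (SE 1.5) and Apob -0.93, -0.82 and -0.8 (SE 0.51). A change of several fold in these genes was not detectable with this spread. Differences of the 50 mg/kg-bw/day effect between tissues were tested as interactions, and 0 members were called in any of the 3 pairs, where 0.0162%, 0.00359% and 0.0144% of all probes were called for liver against lung, liver against forestomach and forestomach against lung.

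The forestomach members followed 2 patterns across mice. Apoa1, Ttr and Apob were high or low in the same animals. In mice 1, 2, 3 and 5 of the vehicle group, Apoa1 read 0.21, 4.96, 5.17 and 5.15, Ttr read 0.51, 5.57, 4.79 and 5.13, and Apob read 0.13, 1.92, 2.27 and 2.13. At 12.5 mg/kg-bw/day, mice 6 to 10 read 5.46, 0.55, 0.55, 0.29 and 4.68 for Apoa1 and 5.52, 0.26, 0.52, 0.17 and 3.31 for Ttr. At 25 mg/kg-bw/day, mice 11 to 15 read 0.8, 0.06, 4.51, 0.24 and 5.47 for Apoa1 and 0.33, 0.08, 4.25, 0.54 and 5.41 for Ttr. High and low animals thus occurred in every group.

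At 50 mg/kg-bw/day, mice 16 to 20 read 0.27, 0.95, 1.66, 5.4 and 4.64 for Apoa1 and 0.33, 1.63, 0.76, 4.51 and 4.38 for Ttr. Markers of glandular stomach, the part of the organ next to the forestomach, moved with these genes. The mean of the 8 markers (Atp4a, Atp4b, Pgc, Gkn1, Gkn2, Tff1, Muc5ac and Cblif) ranged in forestomach from 0.63 to 6.82, against at most 0.3 in lung and 0.14 in liver. It was 0.63, 6.6, 6.66 and 6.68 in the vehicle group and 1.43, 1.49, 5.14, 6.82 and 6.68 at 50 mg/kg-bw/day, high in the mice with high Apoa1 and also in mouse 18, whose Apoa1 was 1.66. The labelled tissue was present in every sample, since the mean of the 8 squamous epithelium markers ranged from 3.7 to 4.78 in forestomach and lay at or under 0.15 in lung and liver. Since the values fall into separate sets, no correlation is given. With the mean of the 8 glandular markers as a covariate 0 members were called, as without it. That fit therefore cannot show the part of glandular cells in the result, which was not tested otherwise.

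Alb, Ahsg, Fgb and Fgg followed another order of mice. Alb read 0.8, 2.11, 0.7 and 2.64 in the vehicle group, 1.1, 0.69, 1.77, 0.48 and 0.68 at 12.5 mg/kg-bw/day, 1.46, 0.3, 4.28, 0.66 and 0.37 at 25 mg/kg-bw/day, and 1.55, 2.96, 0.48, 0.83 and 0.54 at 50 mg/kg-bw/day. Ahsg read 0.8, 2.28, 0.63 and 2.44 in vehicle, 0.7, 0.99, 1.82, 0.94 and 0.9 at 12.5 mg/kg-bw/day, 1.78, 0.41, 4.51, 0.57 and 0.6 at 25 mg/kg-bw/day, and 1.2, 3.16, 0.88, 1.01 and 0.61 at 50 mg/kg-bw/day. Both genes were highest in mouse 13 and next in mouse 17, and mouse 17 was low in Apoa1 (0.95). Fgb and Fgg were highest in the same 2 mice, at 3.17 and 2.3 for Fgb and 3.2 and 1.99 for Fgg.

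Over the 19 forestomachs, Alb correlated with Ahsg at r = 0.98 and rho = 0.86 (permutation tests, adjusted p = 2.7e-05 and 8e-05, the first from the smallest p that 100000 draws give), and at r = 0.93 without mice 13 and 17. Its r was 0.94 with Fgb and 0.94 with Fgg, and 0.81 and 0.82 without these 2 mice. It was 0.84 with Apoa2 (0.54 without them) and 0.77 with Fga (0.39 without them), so that the relation to Fga rested largely on mice 13 and 17. With Trf it was 0.44 (adjusted p = 0.066, permutation). These were 8 relations in all, including those with the marker means. Apoa1, Ttr and Apob were left out because their values fall into separate sets, a choice made after their values were seen. The patterns were read from these same arrays, so the p-values are no test of a split of the members into patterns.

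The mean of 5 hepatocyte enzyme genes whose products stay in the cell (Tat, G6pc, Hpd, Otc and Bhmt) correlated with Alb at r = 0.88 and rho = 0.61 (adjusted p = 6e-05 and 0.011, permutation), and at 0.65 without mice 13 and 17. It ranged from -0.06 to 1.39 and was 1.39 in mouse 13 and 0.67 in mouse 17. The mean of the 8 glandular markers correlated with Alb at r = 0.11 and rho = 0.01 (adjusted p = 0.66 and 0.96, permutation). Of all 15 hepatocyte genes that are not secreted, 3 were read on all forestomach arrays and 2 on none, and their mean ranged from 0.12 to 1.4 there against 6.38 to 7.32 in liver, where all 15 were read on every array. With the mean of the 5 enzyme genes as a covariate, 0 members were called at any dose, as without it. That fit therefore cannot show the part of hepatocytes in the values, which was not tested otherwise. As a description, the genes most like the mean of Apoa2, Trf and Ahsg over the 19 forestomachs were Serpina1a (r = 0.963), Slc27a5 (0.955), Serpina3k (0.942), Mup3 (0.941) and Bhmt (0.936). In lung, the genes most like the same mean over 20 arrays were Dbp (0.843), Klra6 (0.819), Ccdc142 (0.804), Lcn2 (0.801) and Hdac11 (0.8).

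**Figure D5:**
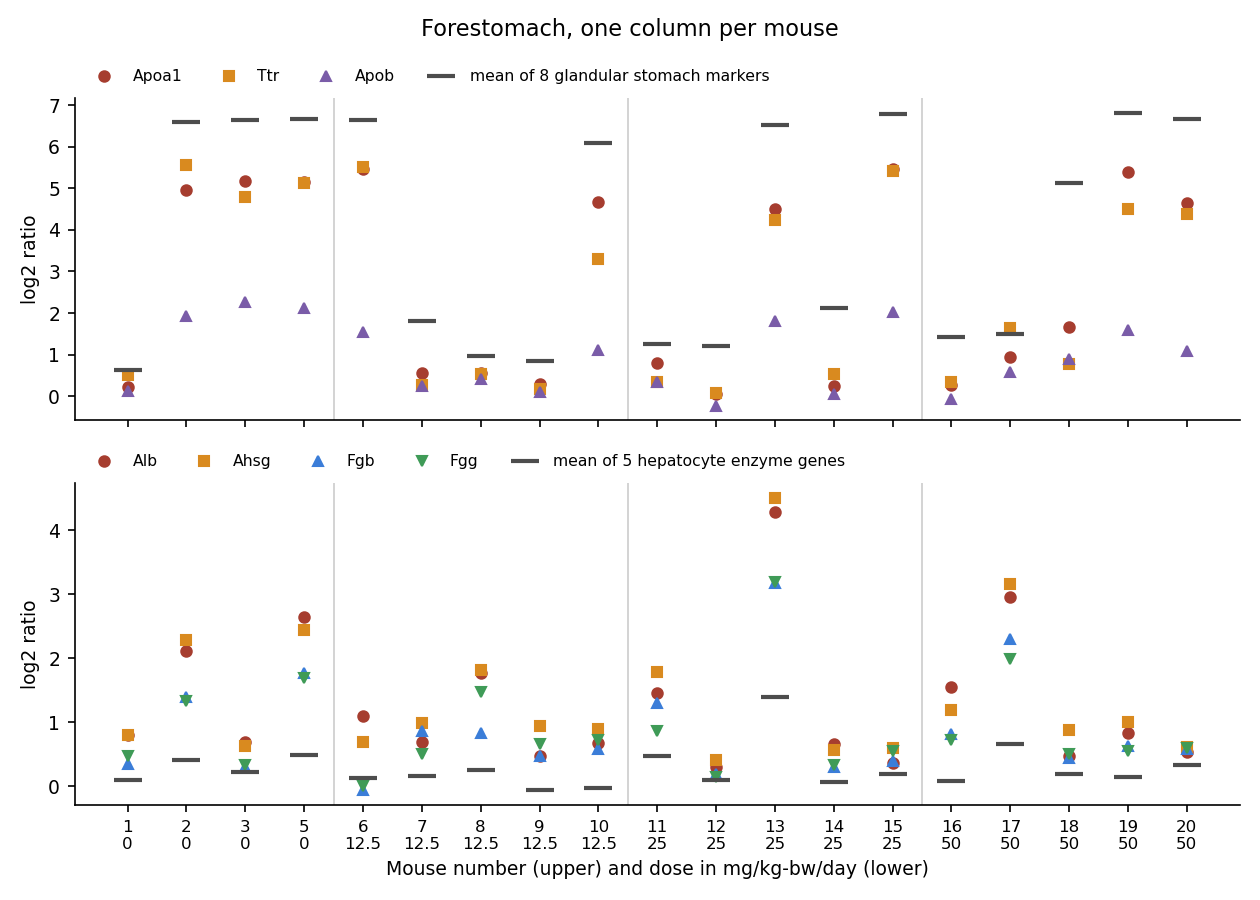
Log2 ratios in forestomach for each mouse (horizontal axis, mouse number above its dose in mg/kg-bw/day), with Apoa1, Ttr and Apob and the mean of 8 glandular stomach markers in the upper panel, and Alb, Ahsg, Fgb and Fgg and the mean of 5 hepatocyte enzyme genes in the lower panel. Mouse 13 is high in both panels (Apoa1 4.51, Alb 4.28), mouse 17 in the lower panel alone (Apoa1 0.95, Alb 2.96), and mouse 15 in the upper panel alone (Apoa1 5.47, Alb 0.37).

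Other genes of the same function were set beside the members. Against vehicle lung, 11 of 12 other plasma carriers, 11 of 11 other apolipoproteins and lipoprotein enzymes, 16 of 16 other coagulation and fibrinolysis factors and 14 of 15 hepatocyte genes that are not secreted were called higher in vehicle liver. Of 14 hepatocyte transcription factors, 11 were called higher and 1 lower. Of all probes, 11.1% were called higher and 15.7% lower in this comparison. Apoe, the apolipoprotein that tissues outside the liver also make, was read on all lung and forestomach arrays with medians of 5.14 and 5.15. Fetub, the paralogue of Ahsg, had a median of 6.13 in forestomach and was read on all 19 arrays there. In lung, Rbp4, the retinol carrier that binds transthyretin, had a median of 2.48 and was read on all 20 arrays.

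No gene of these lists was called in liver at any dose. At 50 mg/kg-bw/day, with loess ratios, 9 of 12 other carriers lay below vehicle (median -0.32), 11 of 11 other apolipoproteins and lipoprotein enzymes (median -0.36), 15 of 16 coagulation factors (median -0.33) and 14 of 15 hepatocyte genes that are not secreted (median -0.45), but with median centring the medians turned to 0.19, 0.21, 0.24 and 0.12. With the Cy5 signal alone, quantile normalised, they were 0.09, -0.02, 0.09 and -0.06. Scaled to the 75th percentile they were -0.16, -0.26, -0.11 and -0.25, where the median of all probes was -0.24. With loess ratios, 2, 2, 2 and 7 genes of these lists had an unadjusted p under 0.05 (limma), where 6.84% of all probes did. Genes of a list share arrays and slides. Among the coagulation factors the widest differences were -0.58 for F5, -0.51 for F7 and -0.47 for Serpind1. In the list of apolipoproteins and lipoprotein enzymes they were -0.58 for Apoh, -0.53 for Apoa5 and -0.45 for Mttp, which loads lipid onto apolipoprotein B. Among the transcription factors, 10 of 14 lay below vehicle with a median of -0.27, which turned to 0.25 with median centring, and the widest were -0.85 for Nr5a2, -0.83 for Nr1i2 and -0.63 for Prox1. In lung at 50 mg/kg-bw/day, Cebpb gave -0.5 (SE 0.09, adjusted p = 0.0251, limma), a change short of the 1.5-fold threshold.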

How the data were processed

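The authors labelled sample RNA with Cy5 and reference RNA with Cy3, hybridised both to Agilent 8x60K arrays and deposited scanner files, in which the spot and background values are median intensity before correction and LogRatio is log10 of Cy5 over Cy3 after the software's background subtraction and dye normalization. The deposited value table holds log2 ratios after the authors' LOWESS. Its lung and forestomach columns matched the scanner files and served as an alternative. Its liver columns were not fitted because their probe names did not match, but only probes with a value in every column, liver included, were kept. Liver arrays were read with Feature Extraction 11.0.1.1 and the others with 10.7.3.1, per the file headers. The share of spots well above background in Cy5 was 38.93 to 90.8% per array, and the number of arrays limits the precision.

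From the median intensity without background subtraction, log2 ratios were normalised by loess within each array and spots of a probe were averaged (limma 3.58.1, R 4.3.3). Of 55681 probes, 27224 were named through unversioned accessions and RefSeq (GRCm38.p6), and 43 with conflicting names were left unnamed. Dose effects were fitted within each tissue (4 groups in 1 fit), and tissue differences and interactions in 1 fit of all 58 arrays, with lmFit and eBayes (two-sided). P-values were Benjamini-Hochberg adjusted over all probes, and calls needed an adjusted p ≤ 0.05 together with a change of 1.5-fold or more. The study's MAANOVA Fs test was not available and limma was used in its place. The scripts were tested on simulated data.

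The members and the other gene lists were chosen with earlier results of these data known. Some listed genes and motifs are not reported here, and the lists were computed without them. All 10 members are named. Of the other lists, the genes past both thresholds, or at most 3 with the widest difference at 50 mg/kg-bw/day, may be named. Rbp4, Apoe and Fetub are named for their levels and were chosen after their values were seen. The most similar genes are the 5 with the highest r to the mean of the members read on all arrays of a tissue. Mouse numbers mark the same animal in each tissue, so the mouse was used as a block in an alternative. Deviations from group means correlated between tissues of 1 mouse by a median r of 0.04 (liver and lung), 0.02 (liver and forestomach) and 0.15 (forestomach and lung). The labels give separate mice as replicates. The extraction protocol states 4 vehicle mice, while 5 vehicle lungs were deposited. Motifs were searched on both strands in the 250 bases before RefSeq starts.

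Alternatives changed the background correction, normalization, scanner flags, dim probes, slide or mouse block, variance model, samples, threshold and probe, and left out each mouse. Chosen after seeing the data were the fits without liver slide 7, with marker means as covariates, with the Cy5 signal scaled to the 75th percentile, and the slide differences and lists under other scalings. So was the choice of the members set against Alb in forestomach.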

Additional observations from a re-analysis of the deposited data

Results flagged for a closer look

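Within a group of 4 or 5 mice, 1 value lay apart from the rest by Dixon's test at the 95% level in 19 of 120 groups tested (15.8%), where chance flags about 1 in 20. The groups share mice and arrays, so that these 19 are not independent. In liver, 5 of the 6 values came from slide 7: Ttr at 7.24 in vehicle mouse 3 (next 8.11), Fgg at 9.83 in mouse 8 at 12.5 mg/kg-bw/day (next 10.53), and in mouse 13 at 25 mg/kg-bw/day Trf at 7.53, Fga at 8.16 and Ahsg at 6.82. The other was Fga at 9.24 in mouse 17 at 50 mg/kg-bw/day, the highest of its group (next 8.67).

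In forestomach, vehicle mouse 1 was the lowest of its group for Apoa1 (0.21, next 4.96), Ttr (0.51, next 4.79) and Apob (0.13, next 1.92). Mouse 13 at 25 mg/kg-bw/day was the highest for Fga (1.51, next 0.27) and Fgg (3.2, next 0.87). Mouse 17 at 50 mg/kg-bw/day was the highest for Fgb (2.3, next 0.82), Fgg (1.99, next 0.72) and Ahsg (3.16, next 1.2), and mouse 8 at 12.5 mg/kg-bw/day was the highest for Ahsg (1.82, next 0.99). All 3 values of mouse 1 were not well above background.

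In lung, the values were Apoa1 at -0.12 in vehicle mouse 3 and at 0.13 in mouse 19 at 50 mg/kg-bw/day (not well above background), Apob at 0.7 in mouse 6 at 12.5 mg/kg-bw/day (next 0.27), and Fgb at 0.5 in vehicle mouse 2 (not well above background). No cause was tested for any of these values.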

How the results depend on the processing

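All 10 members were called higher in liver than in lung and than in forestomach under every alternative that gave a value for all 10, and 0 members were called in any dose comparison or interaction under any alternative. The number called between vehicle forestomach and lung was 5. It was 2 in the authors' value table, where 4 of the members had a value in every column, liver columns included. It was 3 to 7 when each mouse was left out in turn, with 3 without mouse 2 and 3 without mouse 5. With the mouse as a replicate block, fixed or random, the counts were 10, 10 and 5 for the tissue differences, with medians of 8.3, 6.02 and 0.82, and the block changed no call.

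Among single genes, 13 values turned in direction, all in liver at 50 mg/kg-bw/day and none called. With median centring these were Alb 0.06, Apoa1 0.13, Apoa2 0.25, Ttr 0.16, Trf 0.17, Fga 0.29, Fgb 0.41, Fgg 0.07 and Ahsg 0.08. With the Cy5 signal alone, quantile normalised, they were Fga 0.57, Fgb 0.12 and Fgg 0.07, and scaled to the 75th percentile Fga 0.38. The cause was not tested. Between forestomach and lung, 7 values lost the call: Alb with the Cy5 signal alone (1.32), Apob as the mean of 4 dose groups (0.55), Alb without mouse 2 (1.22) or 5 (0.96), and Apob without mouse 2 (1.06), 3 (1.08) or 5 (1.02). Signal over background limits the lung values, where Apoa1 was read on 4 of 20 arrays.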

Other observations

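Inducible acute phase genes were read to different extents in lung. Saa2, a serum amyloid A, ranged in liver from 5.96 through 8.31 to 9.9 and in lung from -0.34 through 0 to 0.21, where it was read on 10 of 20 arrays. Haptoglobin (Hp) ranged in liver from 6.65 through 7.34 to 8.03 and was also read on all 20 lung arrays, from 5.51 through 5.95 to 6.25, with a forestomach median of -0.32. Itih4 ranged in lung from 3.73 through 5.45 to 6.29. Of these 13 genes, 9 were called higher in vehicle liver than in vehicle lung and 1 lower, where 11.1% of all probes were called higher and 15.7% lower. At any dose in liver, 0 of the 13 were called. The genes named here were chosen after their values were seen.

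Of 5 listed fetal liver genes 4 were measured, and 0 of these were called at any dose in liver. Afp, the fetal counterpart of albumin, ranged in liver from -2.46 through -0.9 to -0.29, and Dlk1 from -6.36 through -6.08 to -5.6. Igf2 was read on 0 of 19 liver arrays and Gpc3 on 5, with a median of 0.36, against a median of 4.95 for Gpc3 in lung. At 50 mg/kg-bw/day Afp gave -0.3 (SE 0.33, adjusted p = 0.831, limma).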
